A study of Mus musculus with 16 samples.

Results

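The genes of the mitochondrial protein import machinery were examined in interscapular brown adipose tissue. They were chosen by a rule on gene names, with earlier results of these data known. The rule takes every gene whose symbol starts with Timm or Tomm, and the import motor, chaperone, processing and protease genes Pam16, Dnajc19, Dnajc15, Grpel1, Grpel2, Hspa9, Hspd1, Hspe1, Pmpca, Pmpcb, Clpp, Clpx and Lonp1, with pseudogenes left out. Of 15350 genes with values, 37 met this rule. Of these, 36 code for proteins, and Tomm6os is a noncoding transcript antisense to Tomm6. Another 3 symbols that meet the rule, Timm8a2, Tomm20l and Tomm6, were not among the 15350 genes and are not analysed here. All 37 genes are described below, and no gene was removed by a filter on low values. The lowest read number of a coding member in any library was 61, and Tomm6os had 4 to 32 reads per library.

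Messenger RNA was sequenced from 16 libraries of C57BL/6J mice, 4 in each of 4 groups. The KO isoproterenol and WT isoproterenol groups came from Ucp1 knockout (KO) and wild-type (WT) mice that received isoproterenol, an agonist of beta-adrenergic receptors, from an implanted osmotic minipump at 60 mg per kg per day for 3 days. The KO saline and WT saline groups came from KO and WT mice whose treatment label is saline. The treatment description that all 16 samples share names isoproterenol pumps only, so how saline was given is not stated. Brown adipose tissue is the heat-producing fat of mammals, and UCP1 is the inner-membrane protein that lets its mitochondria release energy as heat. The labels give no age, no sex and no allele of Ucp1, and nothing in them ties a library to an animal. The p-values below speak of the spread among these samples alone, and that spread could be a technical one.

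Ucp1 transcript, the check on genotype, was at 19.0, 268, 848 and 2129 counts per 1e+06 reads (CPM) in KO isoproterenol libraries 1 to 4 and 8905, 11662, 17655 and 18458 CPM in WT isoproterenol. It was at 1118, 588, 1156 and 409.8 CPM in KO saline and 2298, 3449, 3219.7 and 3339 CPM in WT saline. Ucp1 reads were fewer in every KO library than in every WT library under the same treatment, but were present in all of them. The library behind each value had 9004515 to 20986735 reads over the listed genes. The first principal component of all genes held 50.3% of the variance, and the KO isoproterenol libraries 1 to 4 lay on it at 176, 100, 107 and 57.5, apart from the other 12 libraries at -62.0 to 3.97. KO isoproterenol library 1 stood farthest, so values of members that move by over 1.5 times, or whose call ends, without it are given both ways. All 10 brown adipocyte markers examined (Ucp1, Cidea, Cox8b, Cox7a1, Elovl3, Ppara, Ppargc1a, Prdm16, Zic1 and Lhx8) had reads in each library. Their summed level was 118, 1652, 3248 and 7901 CPM in KO isoproterenol, 14432 to 25999.8 CPM in WT isoproterenol, 6141 to 6728 CPM in KO saline and 6798 to 9216 CPM in WT saline. Ucp1 is part of this sum, and the other 9 markers summed to 99.1, 1384, 2400.5 and 5772 CPM in KO isoproterenol, 5527 to 7542 CPM in WT isoproterenol, 5022 to 6172 CPM in KO saline and 4499.7 to 5776 CPM in WT saline. Both sums were lowest in KO isoproterenol library 1.

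Nearly all mitochondrial proteins are made in the cytosol and carried into the organelle. Precursors bind receptors of the outer membrane and pass through the TOM pore. Matrix proteins then cross the inner membrane through the TIM23 complex, pulled by a motor built on the HSP70 chaperone HSPA9, while carriers with several membrane spans are guided by small TIM chaperones to the TIM22 complex. In the matrix the processing peptidase removes the targeting sequence, the HSP60 and HSP10 chaperonin folds the protein, and the LONP1 and CLPXP proteases degrade what is misfolded. Brown adipocytes are packed with mitochondria and must import the parts of their respiratory chain through this route.

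In KO mice isoproterenol was followed by lower transcript levels of most import genes, while in WT mice a few were called higher and none was called lower. A gene was called changed at a Benjamini-Hochberg adjusted p under 0.05, over all 15350 genes, in a limma linear model of log2 CPM with 4 group means. In KO mice, 23 of the 37 members fell and 0 rose with isoproterenol, against 24.8% of all genes that fell and 23.8% that rose. In WT mice 5 of 37 rose and 0 fell, against 7.60% of all genes that rose and 8.98% that fell. KO isoproterenol set against WT isoproterenol gave 30 members lower and 1 higher, against 23.1% of all genes lower and 21.6% higher. The difference of the responses, KO response minus WT response, was negative for 28 members and positive for 1, against 13.8% and 10.9% of all genes. KO saline and WT saline differed in 0 members, and at an unadjusted p under 0.05 also in 0, beside 0.0717% of all genes called higher and 0.0261% called lower in KO. In a limma model of the 8 saline libraries alone, 10 members had an unadjusted p under 0.05. With scaling by library totals instead, 19 members fell and 1 rose in KO, where 2939 of all genes fell and 4493 rose; in WT 4 members rose and 1 fell, where 770 of all genes rose and 1748 fell. In that scaling KO isoproterenol was lower than WT isoproterenol in 28 members and higher in 1, where 2527 of all genes were lower and 5030 higher, and the difference of responses was negative for 20 members and positive for 1, against 1477 and 2895 of all genes. The falls of Timm23, Pam16, Tomm22 and Hspd1 in KO, the rise of Timm8b in WT and the lower levels of Timm23 and Hspa9 in KO isoproterenol than in WT isoproterenol were calls that this scaling ended, and it added a rise of Tomm34 in KO and a fall of Grpel2 in WT. These comparisons share libraries with one another, so the members' values in them are not independent.

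**Figure D1:**
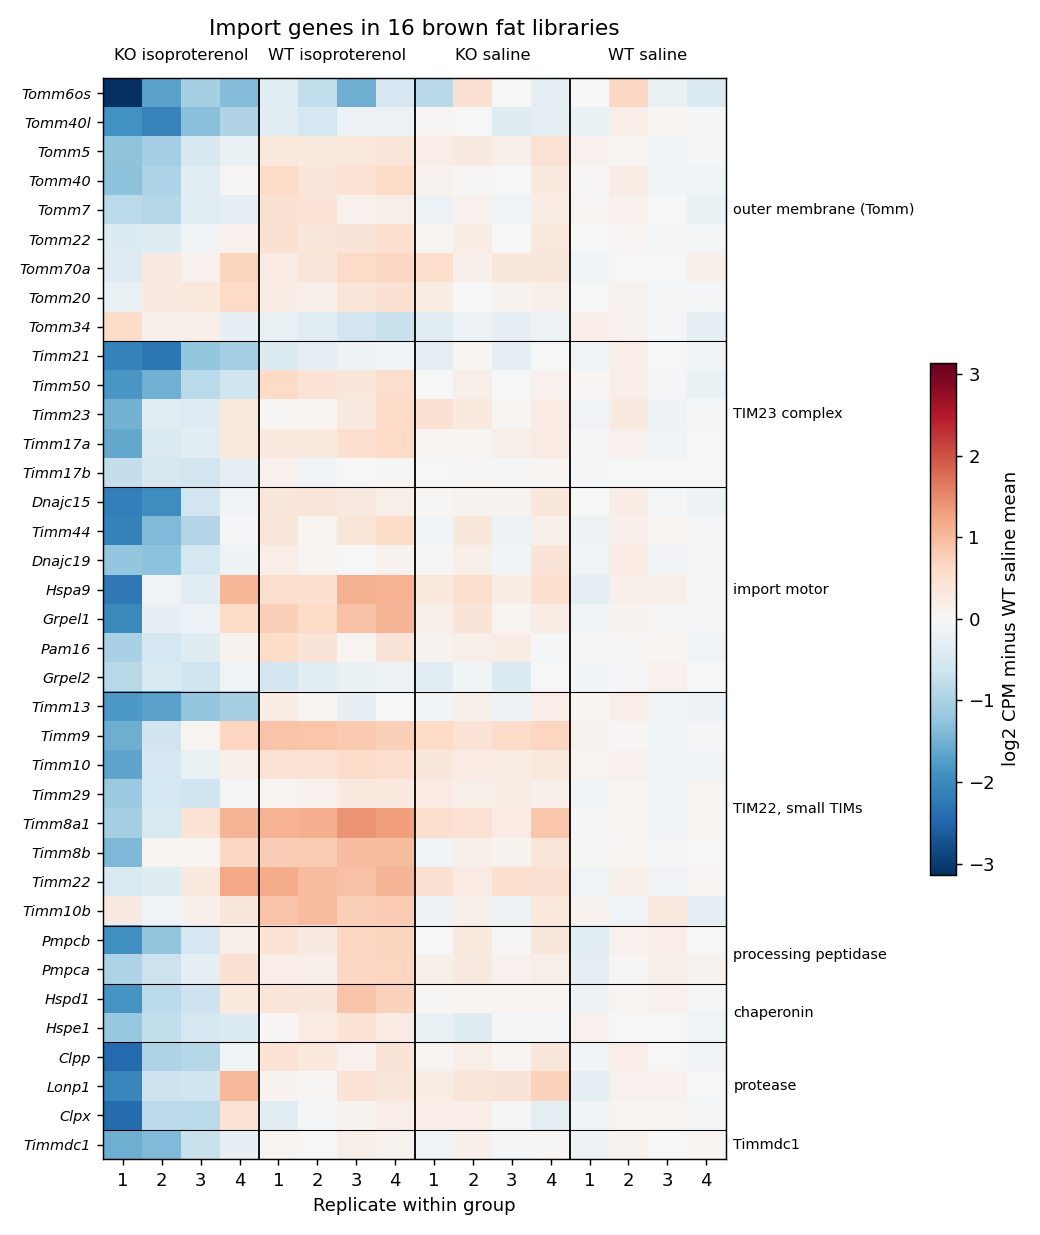
Each row is an import gene, grouped by role, and each column a library; colour gives log2 CPM minus the gene's mean over the 4 WT saline libraries, from blue (lower) to red (higher). KO isoproterenol libraries are bluest for library 1 and palest for library 4, and the WT isoproterenol columns are mostly light red.

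The median member changed by a log2 difference of -0.80 with isoproterenol in KO, with 34 of 37 below 0, and by 0.33 in WT, with 31 of 37 above 0. The medians over all 15350 genes were -0.0021 in KO and -0.018 in WT. In the comparison of KO isoproterenol with WT isoproterenol the members' median was -1.01 (all genes 0.016), and in the difference of responses it was -1.11 (all genes 0.044). Without KO isoproterenol library 1 the KO median was -0.46 and 20 members fell. Without KO isoproterenol library 4 it was -1.04, with 32 lower and 1 higher. In a model of the 8 KO libraries alone 15 members fell, where 17.5% of all genes did, and the 8 that then missed the threshold were Timm23, Timm9, Timm10, Pam16, Tomm22, Tomm40, Hspd1 and Pmpcb. A model of the 8 isoproterenol libraries alone had 21 members lower in KO and 1 higher, where 2458 of all genes were lower and 2181 higher. The lower members that then missed the threshold were Timm8a1, Timm8b, Timm9, Timm17a, Timm22, Timm23, Hspa9, Grpel1 and Pmpca.

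**Figure D2:**
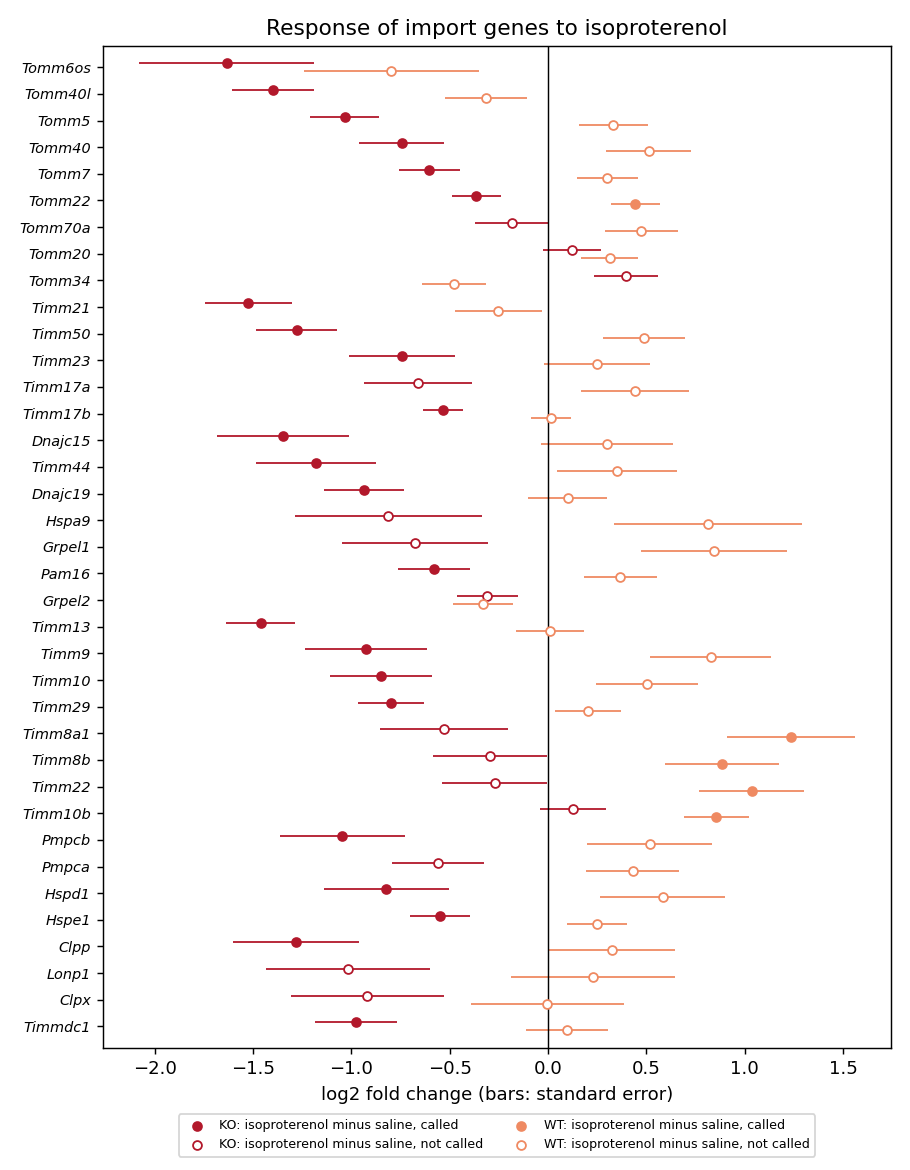
Points give the log2 fold change of each import gene, isoproterenol minus saline, in KO (dark red) and WT (orange), with the standard error; filled points were called. The filled dark red points lie at -1.63 to -0.36 and the filled orange points at 0.44 to 1.23.

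Promoter windows of 5 members are shown because these genes mark the range of responses described below. Timm13 and Timm50 were among the members that fell most in KO, Hspe1 shares its promoter region with Hspd1, Tomm34 was the single member higher in KO isoproterenol than in WT isoproterenol, and Tomm20 was called in no comparison. The sequences run from 250 bases before to 50 bases after the RefSeq gene start (GRCm38.p6), on the gene's strand, 5′ to 3′. Capitals mark matches to any of 7 motifs searched on both strands: CCGGAAG (the ETS core bound by GABP), the NRF1 motif, GAANNTTC or TTCNNGAA (paired heat shock units), TCAAGGTCA (estrogen-related receptors), AAGATGGCG (YY1), TGATGNAAT (CHOP) and TGACGTCA (cyclic AMP response element). The windows lie at chr10:80900920-80901219, minus strand for Timm13, chr7:28311997-28312296, minus strand for Timm50, chr1:55087898-55088197, plus strand for Hspe1, chr2:164071120-164071419, minus strand for Tomm34 and chr8:126945872-126946171, minus strand for Tomm20.
Timm13: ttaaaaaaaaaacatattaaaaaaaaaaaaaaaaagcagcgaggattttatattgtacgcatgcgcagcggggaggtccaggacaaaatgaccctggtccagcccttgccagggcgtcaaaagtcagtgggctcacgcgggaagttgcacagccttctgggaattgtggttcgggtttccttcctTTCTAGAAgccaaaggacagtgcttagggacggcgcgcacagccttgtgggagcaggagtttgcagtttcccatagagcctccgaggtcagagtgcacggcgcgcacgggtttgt
Timm50: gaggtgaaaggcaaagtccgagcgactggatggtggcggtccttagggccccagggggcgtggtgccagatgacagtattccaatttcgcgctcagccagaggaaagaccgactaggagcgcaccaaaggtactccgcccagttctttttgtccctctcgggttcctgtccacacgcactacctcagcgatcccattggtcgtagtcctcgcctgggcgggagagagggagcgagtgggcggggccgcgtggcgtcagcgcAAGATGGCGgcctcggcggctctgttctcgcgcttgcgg
Hspe1: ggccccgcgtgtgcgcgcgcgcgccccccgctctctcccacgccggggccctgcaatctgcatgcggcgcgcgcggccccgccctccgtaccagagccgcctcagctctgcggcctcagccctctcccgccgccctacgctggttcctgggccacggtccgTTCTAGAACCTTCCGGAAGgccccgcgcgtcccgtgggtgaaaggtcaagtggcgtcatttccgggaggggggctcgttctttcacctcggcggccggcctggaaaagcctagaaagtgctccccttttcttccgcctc
Tomm34: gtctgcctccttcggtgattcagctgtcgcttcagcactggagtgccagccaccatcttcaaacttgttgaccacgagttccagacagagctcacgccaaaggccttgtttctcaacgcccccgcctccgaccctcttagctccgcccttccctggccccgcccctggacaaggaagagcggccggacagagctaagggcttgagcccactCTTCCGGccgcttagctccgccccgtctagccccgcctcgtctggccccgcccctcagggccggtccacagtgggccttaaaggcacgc
Tomm20: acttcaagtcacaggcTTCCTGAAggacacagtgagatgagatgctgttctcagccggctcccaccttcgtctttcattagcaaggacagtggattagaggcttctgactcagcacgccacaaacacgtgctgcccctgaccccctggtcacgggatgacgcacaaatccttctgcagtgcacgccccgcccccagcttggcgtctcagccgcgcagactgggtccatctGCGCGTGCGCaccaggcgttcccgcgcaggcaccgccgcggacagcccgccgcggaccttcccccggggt

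A heat shock match TTCTAGAA started at position -65 from the gene start in Timm13 and at -89 in Hspe1. The capitals of Hspe1 hold 5 overlapping matches, of which 3 are heat shock pairs and 2 are ETS cores on opposite strands at -80 and -77. RefSeq places starts of Hspd1 at -216 and 95 on this same scale, on the opposite strand, so the window belongs to both chaperonin genes. Timm50 held a YY1 match 11 bases past its start, Tomm34 an ETS core at -39, and Tomm20 an NRF1 match at -20 and a heat shock pair at -234. A promoter was listed for 32 of the 37 members. The ETS core was in 14 of these 32 (43.8%), against 17.2% of the 11244 promoters of genes in the files and 9.12% of all 27025. Heat shock pairs were in 8 of 32 (25.0%), against 11.9% and 15.1%, and NRF1 matches in 4 (12.5%), against 9.71% and 4.78%. The receptor motif was in 1 member (Timm8b), YY1 in 1 (Timm50), and CHOP and the cyclic AMP element in 0. A match describes letters in the window and not a bound site.

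Of the 9 Tomm symbols, 8 belong to genes that encode the outer-membrane pore, its receptors and accessory factors, and 1 to the antisense transcript Tomm6os. Of these 9, 6 fell with isoproterenol in KO (Tomm6os, Tomm40l, Tomm5, Tomm40, Tomm7 and Tomm22) and 1 rose in WT (Tomm22). Of all genes 24.8% fell in KO and 7.60% rose in WT, and the Tomm share that rose, 1 of 9, was near the latter. In KO isoproterenol against WT isoproterenol 23.1% of all genes were lower. These shares also stand beside the counts by role that follow. Tomm40 encodes the channel itself. It was at 42.9, 53.8, 83.1 and 107 CPM in KO isoproterenol libraries 1 to 4 and 162, 136, 144 and 156 CPM in WT isoproterenol. Under saline it was at 113, 107, 103 and 129.6 CPM in KO and 107, 122, 95.2 and 95.7 CPM in WT. The highest KO isoproterenol library lay inside the KO saline range and the other 3 below it, while all 4 WT isoproterenol libraries lay above the WT saline ones. Tomm40 fell in KO (log2 -0.74 ± 0.22 standard error, adjusted p 0.0103, limma) and had a log2 change of 0.51 ± 0.22 in WT (adjusted p 0.122). KO isoproterenol was below WT isoproterenol by a log2 difference of -1.15 ± 0.22 (adjusted p 7.07e-04, limma).

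Tomm40l, a gene related to Tomm40, had 8.78, 7.63, 13.0 and 16.9 CPM in KO isoproterenol and 26.0, 22.0, 28.4 and 28.7 CPM in WT isoproterenol. It had 33.4, 32.9, 24.9 and 26.1 CPM in KO saline and 28.1, 37.3, 33.7 and 31.5 CPM in WT saline. Every KO isoproterenol library was below every library of the other groups, and the fall in KO was 2.64-fold (log2 -1.40 ± 0.21, adjusted p 9.60e-05, limma). Tomm5 and Tomm7, small subunits of the pore complex, fell in KO by log2 differences of -1.03 and -0.60. Tomm22, the central receptor, fell in KO (log2 -0.36 ± 0.12, adjusted p 0.0247) and rose in WT (log2 0.44 ± 0.12, adjusted p 0.0247, limma). Scaled by library totals the KO change of Tomm22 was -0.18 (adjusted p 0.157, limma), and without KO isoproterenol library 1 it was -0.29 (adjusted p 0.074). Each Tomm22 call was lost when any 1 of 4 of its 8 libraries was left out. The antisense transcript Tomm6os had 0.214, 0.587, 0.914 and 0.727 CPM in KO isoproterenol, 1.46, 1.10, 0.655 and 1.30 CPM in WT isoproterenol, 1.03, 2.62, 1.85 and 1.55 CPM in KO saline and 1.90, 2.93, 1.63 and 1.37 CPM in WT saline. Its KO fall had the largest estimate of all 37 (log2 -1.63 ± 0.45, adjusted p 0.00718, limma), at under 3 CPM in every library, where a few reads set the value and where reads of Tomm6 on the other strand may be mixed in.

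Tomm20 and Tomm70a, the receptors that first bind precursors, were called in none of the 5 comparisons. Tomm20 was at 53.5, 77.1, 79.2 and 96.5 CPM in KO isoproterenol and 73.9, 70.1, 82.7 and 87.8 CPM in WT isoproterenol. In saline libraries it was at 74.5, 62.5, 68.5 and 70.7 CPM in KO and 62.0, 68.3, 60.1 and 62.0 CPM in WT. KO isoproterenol library 1 was the lowest of all 16 and library 4 the highest, so this group spanned the others. The log2 change was 0.12 ± 0.15 in KO and 0.31 ± 0.15 in WT, and the sign in KO turned without KO isoproterenol library 4, while without library 1 the KO change was 0.28. Tomm70a had log2 changes of -0.19 ± 0.18 in KO and 0.47 ± 0.18 in WT, and the KO value was 0.0093 without KO isoproterenol library 1. Tomm34, a cytosolic co-chaperone of precursors, was the single member with a value above 0 in KO isoproterenol against WT isoproterenol; it was picked out after its values were seen. It had 43.2, 32.3, 33.1 and 24.3 CPM in KO isoproterenol and 24.5, 22.7, 19.1 and 17.8 CPM in WT isoproterenol, against 23.1, 25.7, 24.2 and 26.0 CPM in KO saline and 33.5, 31.3, 28.4 and 23.9 CPM in WT saline. The lowest KO isoproterenol library fell inside the WT isoproterenol range and the other 3 were above it. Tomm34 was higher in KO isoproterenol than in WT isoproterenol (log2 0.64 ± 0.16, adjusted p 0.00502, limma), and neither response alone was called, at 0.40 ± 0.16 in KO and -0.48 ± 0.16 in WT. The KO change of Tomm34 was called at that value with the WT replicate block described below (adjusted p 0.0484) and at 0.58 scaled by library totals (adjusted p 0.0334, limma), and was 0.26 without KO isoproterenol library 1.

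**Figure D3:**
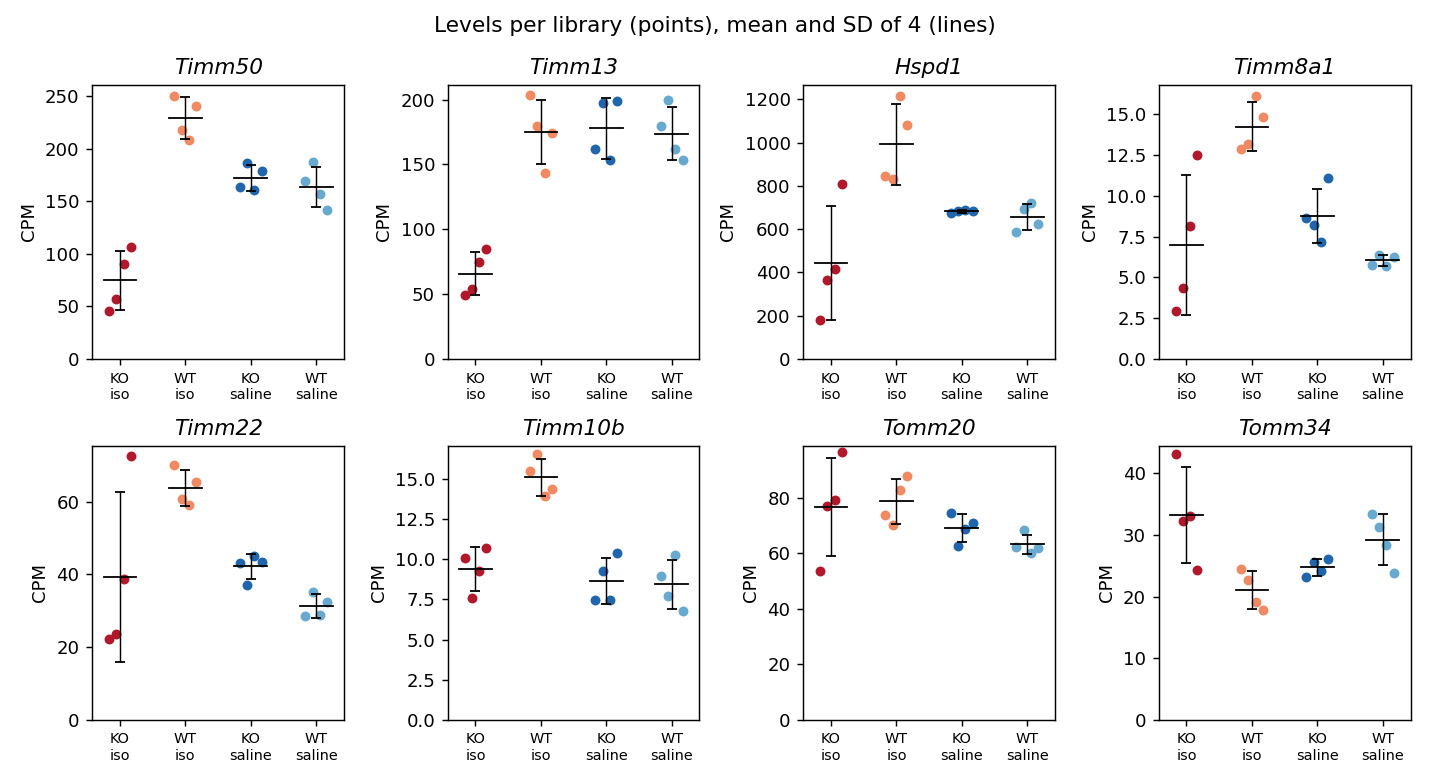
Each panel shows CPM of 1 gene in the 16 libraries, as points, with the mean and SD of each group of 4 as black lines, from KO isoproterenol on the left to WT saline on the right. Timm50 and Timm13 are lowest in KO isoproterenol without overlap with the other groups, Timm10b is highest in WT isoproterenol, and the KO isoproterenol points of Tomm20 span those of the other groups.

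All 5 genes of the TIM23 complex, the inner-membrane gate for matrix proteins, were lower in KO isoproterenol than in WT isoproterenol, and 4 fell in KO with isoproterenol. None of the 5 was called in WT. Timm50, the receptor that takes precursors over from the TOM pore, was at 45.9, 57.2, 90.7 and 106 CPM in KO isoproterenol and 251, 218, 208 and 241 CPM in WT isoproterenol. It was at 164, 186, 161 and 179 CPM in KO saline and 169.6, 187, 157 and 142 CPM in WT saline. Every KO isoproterenol library was below all others and every WT isoproterenol library above all others. Timm50 had the largest difference between KO and WT isoproterenol of all members (log2 -1.69 ± 0.21, 3.23-fold lower, adjusted p 3.61e-05, limma) and the largest difference of responses (log2 -1.77 ± 0.29, adjusted p 0.0016). The KO fall was 2.43-fold (log2 -1.28 ± 0.21, adjusted p 1.85e-04, limma).

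Timm21, which links the gate to the TOM complex and to respiratory chain assembly, had 18.6, 16.6, 34.7 and 38.5 CPM in KO isoproterenol and 59.8, 66.6, 71.8 and 72.8 CPM in WT isoproterenol. Under saline it had 65.5, 83.7, 65.0 and 79.2 CPM in KO and 74.9, 92.5, 79.8 and 75.9 CPM in WT. The KO isoproterenol libraries were again below all others, and the KO fall was 2.88-fold (log2 -1.52 ± 0.22, adjusted p 7.70e-05, limma). Timm23, the channel subunit, was at 11.5, 25.5, 24.2 and 40.0 CPM in KO isoproterenol, 33.0, 33.3, 39.0 and 48.4 CPM in WT isoproterenol, 44.2, 39.3, 33.5 and 38.3 CPM in KO saline and 29.7, 39.5, 28.5 and 31.2 CPM in WT saline. Library 4 of KO isoproterenol lay inside the WT isoproterenol and KO saline ranges, and the Timm23 fall in KO (log2 -0.74 ± 0.27, adjusted p 0.0334, limma) was -0.41 without KO isoproterenol library 1 (adjusted p 0.0853). Its lower level in KO isoproterenol than in WT isoproterenol (log2 -0.72 ± 0.27, adjusted p 0.0419) was -0.38 without that library (adjusted p 0.11, limma). Neither Timm23 call rested on library 1 alone. The call of the KO fall was lost when any 1 of 5 KO libraries was left out, library 1 among them. The call against WT isoproterenol was lost when any 1 of 6 isoproterenol libraries was left out, again with library 1 among them.

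Timm17a and Timm17b are alternative partners of the channel. Timm17a was at 44.7, 99.7, 109 and 173 CPM in KO isoproterenol and 169, 168, 196 and 211 CPM in WT isoproterenol. It was at 144, 145, 155 and 163 CPM in KO saline and 131, 150.4, 127 and 137 CPM in WT saline. Timm17b was at 21.2, 25.1, 23.9 and 29.1 CPM in KO isoproterenol, 39.0, 33.1, 35.6 and 36.2 CPM in WT isoproterenol, 35.2, 36.6, 34.1 and 37.2 CPM in KO saline and 34.8, 35.7, 36.0 and 35.7 CPM in WT saline. Timm17b kept within a narrow band in the other 3 groups, and all 4 KO isoproterenol libraries lay below it. Timm17b fell in KO (log2 -0.53 ± 0.10, adjusted p 5.47e-04, limma), while the more variable Timm17a had a log2 change of -0.66 ± 0.27 that was not called (adjusted p 0.0569), or -0.30 without KO isoproterenol library 1. Against WT isoproterenol, Timm17a was lower in KO by log2 -0.95 ± 0.27 (adjusted p 0.0108, limma), or -0.59 without KO isoproterenol library 1.

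The import motor pulls precursors into the matrix. Of its 7 genes, 4 fell with isoproterenol in KO (Dnajc15, Timm44, Dnajc19 and Pam16), 0 were called in WT, and 6 were lower in KO isoproterenol than in WT isoproterenol. Dnajc15, a J protein of the motor, was at 51.1, 59.0, 150.0 and 211 CPM in KO isoproterenol and 288, 293, 275 and 259 CPM in WT isoproterenol. Its saline levels were 231, 243, 247 and 289 CPM in KO and 226, 268, 216 and 202 CPM in WT. KO isoproterenol libraries 1 and 2 were far below libraries 3 and 4, and library 4 lay inside the WT saline range. The KO fall was 2.55-fold (log2 -1.35 ± 0.33, adjusted p 0.00392, limma), and the difference from WT isoproterenol was -1.50 ± 0.33 (adjusted p 0.00226). Timm44, which anchors the chaperone at the channel, had 53.8, 89.2, 124 and 227 CPM in KO isoproterenol, 305, 247, 302 and 347 CPM in WT isoproterenol, 221, 300.0, 207 and 259 CPM in KO saline and 209, 259, 247 and 223 CPM in WT saline. Library 4 of KO isoproterenol lay inside both saline ranges and the other 3 below them. Timm44 fell in KO (log2 -1.18 ± 0.31, adjusted p 0.00522) and was lower than in WT isoproterenol (log2 -1.47 ± 0.31, adjusted p 0.00143, limma).

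Hspa9 encodes the HSP70 chaperone at the core of the motor. It was at 282, 1237, 1061 and 2734 CPM in KO isoproterenol and 1946, 1925, 2885 and 2838 CPM in WT isoproterenol. It was at 1670.5, 1929.7, 1561 and 1912 CPM in KO saline and 1079, 1499.6, 1528 and 1303 CPM in WT saline. KO isoproterenol spanned the widest range of the 4 groups, with library 1 the lowest of 16 and library 4 among the WT isoproterenol values. The log2 change was -0.81 ± 0.48 in KO and 0.81 ± 0.48 in WT, and neither was called. Without KO isoproterenol library 1 the KO change of Hspa9 was -0.20 (adjusted p 0.602, limma). Hspa9 was lower in KO isoproterenol than in WT isoproterenol (log2 -1.23 ± 0.48, adjusted p 0.0465, limma), a call lost when any 1 of 7 of the 8 isoproterenol libraries was left out, and at -0.62 without KO isoproterenol library 1 (adjusted p 0.0977). Grpel1, its nucleotide exchange factor, had log2 changes of -0.68 ± 0.37 in KO and 0.84 ± 0.37 in WT, neither called, and was lower in KO isoproterenol than in WT isoproterenol (log2 -1.30 ± 0.37, adjusted p 0.0105; -0.78 without KO isoproterenol library 1; limma). The KO change of Grpel1 was -0.16 without that library. Grpel2, the second exchange factor, was called in none of the 5 comparisons, but scaled by library totals it was lower in WT with isoproterenol (log2 -0.44, adjusted p 0.0334, limma). Dnajc19 and Pam16, which steer the chaperone's ATP cycle, fell in KO by log2 -0.94 and -0.58; scaled by library totals Pam16 was at -0.40 (adjusted p 0.0662, limma).

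The TIM22 complex and the small TIM chaperones, which carry metabolite carriers and other hydrophobic proteins to and into the inner membrane, held 4 of the 5 members that rose in WT. These were Timm8a1, Timm22, Timm8b and Timm10b of 8 genes. Another 4 of the 8 fell in KO (Timm13, Timm9, Timm10 and Timm29), and all 8 were lower in KO isoproterenol than in WT isoproterenol, Timm22 not past the threshold without KO isoproterenol library 2 (adjusted p 0.0548, limma). In a model of the 8 isoproterenol libraries alone Timm22 (adjusted p 0.0869), Timm8b (0.0672), Timm9 (0.0577) and Timm8a1 (0.0516, limma) missed the threshold. Timm8a1, a small TIM, was at 2.93, 4.36, 8.12 and 12.5 CPM in KO isoproterenol and 12.8, 13.2, 16.1 and 14.8 CPM in WT isoproterenol. It was at 8.61, 8.20, 7.15 and 11.1 CPM in KO saline and 5.78, 6.37, 5.72 and 6.27 CPM in WT saline. All 4 WT isoproterenol libraries exceeded every other library, and the WT rise was 2.35-fold (log2 1.23 ± 0.33, adjusted p 0.0182, limma). The KO change was -0.53 ± 0.33 (adjusted p 0.194), or -0.18 without KO isoproterenol library 1, and the responses differed by log2 -1.76 ± 0.46 (adjusted p 0.0145, limma).

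Timm22, the pore of the carrier pathway, had 22.3, 23.7, 38.6 and 72.6 CPM in KO isoproterenol and 70.1, 60.7, 59.1 and 65.4 CPM in WT isoproterenol. Under saline it had 43.2, 37.1, 45.0 and 43.5 CPM in KO and 28.4, 35.3, 28.7 and 32.4 CPM in WT. WT isoproterenol was above both saline groups without overlap, and KO isoproterenol ran from the lowest to the highest library of all 16. Timm22 rose in WT 2.05-fold (log2 1.03 ± 0.27, adjusted p 0.016, limma), and its KO change was -0.27 ± 0.27, or -0.055 without KO isoproterenol library 1. Timm10b was at 10.1, 7.57, 9.27 and 10.7 CPM in KO isoproterenol, 15.5, 16.6, 14.0 and 14.4 CPM in WT isoproterenol, 7.47, 9.29, 7.44 and 10.4 CPM in KO saline and 8.95, 7.72, 10.3 and 6.77 CPM in WT saline. The WT isoproterenol libraries stood above all others, with a rise of 1.81-fold (log2 0.86 ± 0.17, adjusted p 0.00323, limma) and a KO change of 0.13 ± 0.17. Timm8b was at 16.8, 47.1, 46.1 and 69.0 CPM in KO isoproterenol, 76.0, 76.7, 87.2 and 88.0 CPM in WT isoproterenol, 41.8, 49.7, 48.2 and 57.1 CPM in KO saline and 45.1, 46.2, 42.4 and 43.6 CPM in WT saline. Its WT rise (log2 0.88 ± 0.29, adjusted p 0.049, limma) was lost without any 1 of the 8 WT libraries, although the WT isoproterenol libraries did not overlap those under saline.

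Timm13, a small TIM that pairs with Timm8a1 and Timm8b products, was at 49.3, 54.3, 74.9 and 84.5 CPM in KO isoproterenol and 204, 179.8, 143 and 174 CPM in WT isoproterenol. It was at 162, 197, 154 and 199 CPM in KO saline and 179, 199, 162 and 153 CPM in WT saline. The 4 KO isoproterenol libraries were the lowest of all 16 and the other groups overlapped. Timm13 fell 2.75-fold in KO (log2 -1.46 ± 0.17, adjusted p 1.37e-05), had a change of 0.0094 ± 0.17 in WT, and was 2.71-fold lower in KO isoproterenol than in WT isoproterenol (adjusted p 3.37e-05, limma). Timm9, which forms the main small TIM chaperone with Timm10, had 15.0, 28.5, 46.3 and 69.2 CPM in KO isoproterenol and 80.3, 79.3, 76.3 and 73.2 CPM in WT isoproterenol. It had 66.7, 58.5, 65.4 and 69.9 CPM in KO saline and 47.0, 44.6, 40.4 and 42.5 CPM in WT saline. KO isoproterenol library 1 was the lowest of all 16 libraries, library 4 lay inside the KO saline range, and KO saline lay above WT saline. Timm9 fell in KO (log2 -0.93 ± 0.31, adjusted p 0.022, limma; -0.53 without KO isoproterenol library 1), and the call was lost without KO isoproterenol library 2 (adjusted p 0.0584). Its WT change was 0.83 ± 0.31 (adjusted p 0.0819). Timm10 and Timm29 fell in KO by log2 -0.85 and -0.80; for Timm10 the value was -0.49 without KO isoproterenol library 1.

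The chaperonin genes Hspd1 (HSP60) and Hspe1 (HSP10), which fold imported proteins, both fell in KO, and both were lower in KO isoproterenol than in WT isoproterenol. Hspd1 was at 181, 365, 418 and 807 CPM in KO isoproterenol and 845, 830.4, 1215 and 1082 CPM in WT isoproterenol. Its saline levels were 674, 683, 690.3 and 685 CPM in KO and 588, 693, 721 and 625 CPM in WT. KO saline libraries agreed closely, while KO isoproterenol libraries lay on both sides of them, with 3 below and 1 above. Hspd1 fell in KO (log2 -0.82 ± 0.32, adjusted p 0.0438, limma), or -0.46 without KO isoproterenol library 1 (adjusted p 0.122), and the call was lost when any 1 of 7 of the 8 KO libraries was left out. Against WT isoproterenol the KO isoproterenol level was lower by log2 -1.34 ± 0.32 (adjusted p 0.00337, limma). Hspe1 was at 64.0, 85.5, 100.3 and 109 CPM in KO isoproterenol, 149.5, 174, 198 and 175 CPM in WT isoproterenol, 125, 113, 140.3 and 139 CPM in KO saline and 159.6, 145, 148 and 132 CPM in WT saline. All 4 KO isoproterenol libraries of Hspe1 were below every other library, and the fall in KO was log2 -0.55 ± 0.15 (adjusted p 0.008, limma).

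Pmpcb, the catalytic subunit of the processing peptidase, fell in KO (log2 -1.05 ± 0.32, adjusted p 0.0133), and Pmpca, its substrate-binding partner, had a change of -0.56 ± 0.24 that was not called (adjusted p 0.0616, limma), or -0.36 without KO isoproterenol library 1. Both were lower in KO isoproterenol than in WT isoproterenol, at log2 -1.39 and -0.80. Of the 3 protease genes, Clpp fell in KO while Clpx and Lonp1 were called in none of the 5 comparisons. This share, 1 of 3, was near the 24.8% of all genes that fell in KO. Clpp, the proteolytic part of CLPXP, was at 20.8, 57.9, 60.6 and 103 CPM in KO isoproterenol and 152, 143, 124 and 149 CPM in WT isoproterenol. It was at 119.6, 128, 118 and 145 CPM in KO saline and 106, 129, 113 and 105 CPM in WT saline. Every KO isoproterenol library was below every other library, library 1 the farthest, and the fall was log2 -1.28 ± 0.32 (adjusted p 0.00415, limma), or -0.84 without KO isoproterenol library 1 (adjusted p 0.00113).

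Lonp1, the AAA protease of the matrix, was at 68.6, 181, 184 and 572 CPM in KO isoproterenol and 308, 289, 379.8 and 360.2 CPM in WT isoproterenol. It was at 336, 372, 377 and 471 CPM in KO saline and 233, 311, 313 and 286 CPM in WT saline. In KO isoproterenol, libraries 1 to 3 were the lowest and library 4 the highest of all 16, and the log2 change of -1.02 ± 0.42 was not called (adjusted p 0.055, limma), or -0.53 without library 1. Clpx, the unfoldase partner of Clpp, had a change of -0.92 ± 0.39 in KO (adjusted p 0.0625, limma), or -0.42 without KO isoproterenol library 1. Timmdc1, which carries a Timm symbol but is known for assembly of complex I, fell in KO by log2 -0.98 ± 0.21 (adjusted p 0.00143, limma).

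Under saline, KO and WT differed in 0 members by the model. In 9 of 37 members all 4 KO saline libraries were above all 4 WT saline libraries (Timm22, Timm9, Tomm70a, Hspa9, Timm10, Lonp1, Timm8a1, Timm29 and Tomm5), and in 0 all were below. Among all genes 3.75% were separated upward in this way. The largest estimates were 0.58 ± 0.31 for Timm9 (log2, adjusted p 0.783) and 0.52 ± 0.33 for Timm8a1 (adjusted p 0.824, limma), and the median member was at 0.13. In a model of the 8 saline libraries alone 1 member was called higher in KO, where 29 of all genes were. In that model 10 members had an unadjusted p under 0.05 (limma). Under isoproterenol, all 4 KO libraries were below all 4 WT libraries in 23 members, where 18.3% of all genes were, and above them in 0. With isoproterenol the 4 KO libraries were all below KO saline in 15 members (19.3% of all genes), and the 4 WT libraries all above WT saline in 20 (16.3% of all genes). In the opposite direction, 0 members were separated in KO and 2 in WT, and the share of all genes for these was not counted.

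In WT, same-numbered isoproterenol and saline libraries had correlations of 0.210, 0.423, 0.234 and 0.535 in their deviations from the group means. Some different-numbered pairs did too, at 0.371 for isoproterenol 2 with saline 1 and 0.345 for isoproterenol 3 with saline 4. The match is therefore not to the number alone. With the library number as a block, 3 members rose in WT, where 5.41% of all genes did: Timm10b (adjusted p 0.0105), Timm22 (0.0428) and Timm8a1 (0.0467). Timm8b (0.1) and Tomm22 (0.0585) then missed the threshold in limma. In the same fit the difference of responses missed it for Dnajc15 (adjusted p 0.0501) and Timm22 (0.0514), and for Timm8b, Timm17a, Grpel1, Hspd1, Pmpca and Timm10b at 0.063 to 0.0922. The lower level of Hspa9 (0.0817) and Timm23 (0.0724) in KO isoproterenol than in WT isoproterenol, and the KO falls of Hspd1 (0.075), Timm23 (0.0599) and Tomm22 (0.0509), also missed it. The same fit added 1 call, the higher level of Tomm34 in KO with isoproterenol (0.0484). A model of the 8 WT libraries alone, which does not share the wide spread of the KO isoproterenol group, called 21 members higher and 2 lower in WT, where 16.3% of all genes were called higher. The count of WT members that rose thus ran from 3 to 21 over these models. It was 3 without WT isoproterenol library 1, 3 or 4, and without WT saline library 3 or 4. Without WT isoproterenol library 1 or WT saline library 4, 1 member was also called lower. Timm8a1 missed the threshold without WT isoproterenol library 3.

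The 4 KO isoproterenol libraries differed from one another more than those of any other group. The median member stood at -1.56, -0.85, -0.58 and -0.024 (log2, against the KO saline mean) in KO isoproterenol libraries 1 to 4, while the 4 WT isoproterenol libraries stood at 0.32, 0.30, 0.37 and 0.48 against the WT saline mean. Members below the saline mean of their genotype numbered 35, 35, 34 and 20 in the 4 KO isoproterenol libraries. The motor genes had medians of -2.18, -0.66, -0.69 and -0.015 in these libraries and the Tomm genes -0.85, -0.91, -0.38 and -0.076. Subunits of respiratory complex I, set beside the members, had medians of -2.62, -1.91, -1.27 and -0.69, and proteins of the mitochondrial ribosome -1.29, -0.94, -0.60 and -0.20. With isoproterenol in KO, 45 of 47 complex I genes fell (median -1.64) and 60 of 77 ribosomal genes (median -0.77), beside 23 of 37 import genes. Of all genes 24.8% fell in KO. In WT 2 of 47 and 12 of 77 rose, and 1 and 0 fell, where 7.60% of all genes rose and 8.98% fell.

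Of the marker lists, only the adipocyte and brown adipocyte sums rose from KO isoproterenol library 1 to 4, as the import medians did. The other lists did not keep that order in either direction. The 10 adipocyte markers summed to 5924, 14129, 23415 and 40275 CPM in KO isoproterenol libraries 1 to 4, against 27267 to 32375 CPM in WT isoproterenol, 31168 to 38648 CPM in KO saline and 28815 to 33420.3 CPM in WT saline. In KO 6 of the 10 fell and 1 rose. Of all genes, 24.8% fell and 23.8% rose in KO, and 8.98% fell and 7.60% rose in WT. These shares also stand beside the marker counts that follow. The 10 macrophage markers summed to 8057, 2209, 4988 and 1076 CPM in KO isoproterenol, 606 to 1085 CPM in WT isoproterenol, 361 to 653 CPM in KO saline and 263 to 631 CPM in WT saline. All 10 rose in KO and 3 rose in WT. Neutrophil markers (6 of 7 with values) summed to 68.0 to 451 CPM in KO isoproterenol, 16.2 to 31.5 CPM in WT isoproterenol, 5.51 to 7.47 CPM in KO saline and 5.31 to 10.7 CPM in WT saline. In KO 6 of these 6 rose and in WT 3 did. The 8 skeletal muscle markers summed to 12.7, 689, 557 and 76.6 CPM in KO isoproterenol libraries 1 to 4 and 10.9, 713, 755 and 5.63 CPM in KO saline. In WT they summed to 174, 5.38, 984 and 2632 CPM under isoproterenol and 289, 6.77, 1273 and 8237 CPM under saline. Library 2 was lowest and library 4 highest in both WT groups. Libraries 1 and 4 were below libraries 2 and 3 in both KO groups. Of the erythroid markers (3 of 4 with values) 3 fell in KO and 0 were called in WT, with sums of 72.4 to 127 CPM in KO isoproterenol, 146 to 343 CPM in WT isoproterenol, 198 to 327 CPM in KO saline and 207 to 317 CPM in WT saline. Of the lymphocyte markers (6 of 8 with values) 3 fell in KO and 1 in WT, with sums of 2.46 to 10.8 CPM in KO isoproterenol, 4.16 to 8.84 CPM in WT isoproterenol, 7.70 to 17.4 CPM in KO saline and 7.77 to 11.5 CPM in WT saline. Of 6 endothelial markers 3 rose in KO and 2 in WT, with sums of 1517 to 1674 CPM in KO isoproterenol, 1429.5 to 2076 CPM in WT isoproterenol, 1027 to 1475 CPM in KO saline and 1418 to 1725 CPM in WT saline. Of 6 fibroblast markers 2 rose in KO and 0 were called in WT, with sums of 932 to 3143 CPM in KO isoproterenol, 1065 to 1547 CPM in WT isoproterenol, 831 to 1100.3 CPM in KO saline and 752 to 1451 CPM in WT saline. The fibroblast share that rose in KO, 2 of 6, was near that of all genes. No marker of these lists was at 0 in all 4 libraries of a group. The part of these markers in the import gene results was not tested. In bulk tissue, fewer cells of a type and less RNA per cell cannot be told apart.

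**Figure D4:**
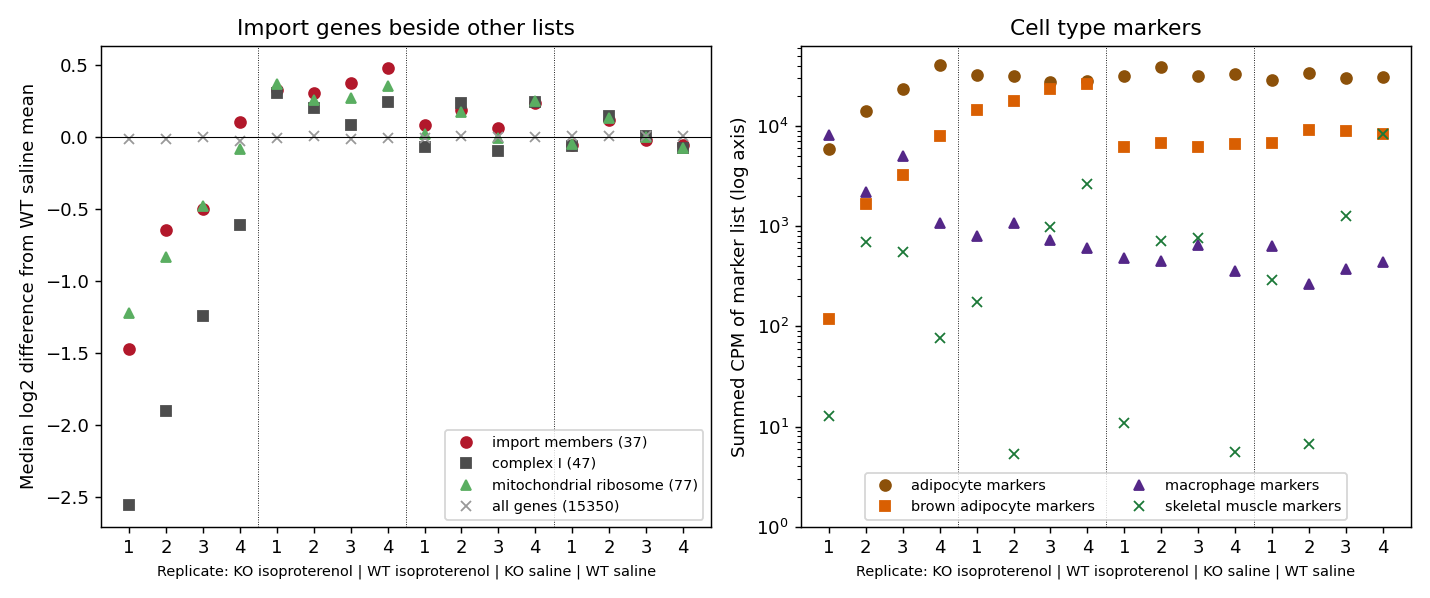
Left, the median log2 difference from the WT saline mean in each library for the 37 import genes, 47 complex I genes, 77 mitochondrial ribosome genes and all genes; right, summed CPM of marker lists on a log axis. Import genes lie lowest in KO isoproterenol library 1, where adipocyte markers are lowest and macrophage markers highest, while the medians of all genes stay close to 0.

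Other genes of the import pathway moved in the same comparisons. Of 34 such genes (sorting, insertion, cleavage and quality control of imported proteins, and cytosolic chaperones of precursors), 21 fell and 1 rose with isoproterenol in KO, with a median log2 change of -0.87, while 1 rose and 0 fell in WT. The share that fell in KO was 61.8%, against 24.8% of all genes, and the share that rose in WT was 2.94%, against 7.60% of all genes. Immp2l, a subunit of the inner-membrane peptidase, averaged 8.86 ± 6.67 CPM in KO isoproterenol and 74.6 ± 14.4 CPM in KO saline (SD, n = 4 each), a log2 change of -3.56 ± 0.54 (adjusted p 1.08e-04, limma). Mipep, which trims precursors after the processing peptidase, fell by log2 -2.32 ± 0.28, and Trap1, a matrix HSP90 chaperone, by -1.72 ± 0.28. Against WT isoproterenol, Immp2l, Dnaja3 (a matrix J protein) and Mtch2 (an outer-membrane insertase) were lower in KO isoproterenol at log2 -2.51, -2.03 and -1.97. The responses differed most for Immp2l (-2.58), Dnaja3 (-2.20) and Phb, a prohibitin scaffold (-2.12). In WT the single riser was Hsp90aa1, a cytosolic HSP90 (log2 0.90 ± 0.25, adjusted p 0.0226, limma). Without KO isoproterenol library 1, 16 of the 34 fell in KO, with a median of -0.58.

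Of 18 genes for transcription factors and coactivators of mitochondrial or stress programmes, 5 rose (27.8%) and 4 fell (22.2%) with isoproterenol in KO, near the shares of all genes (23.8% and 24.8%), and 0 rose and 1 fell (5.56%) in WT, where 8.98% of all genes fell. Ppargc1b, a coactivator of mitochondrial genes, averaged 29.8 ± 26.4 CPM in KO isoproterenol and 107 ± 37.2 CPM in KO saline (SD, n = 4 each), a log2 change of -2.50 ± 0.67 (adjusted p 0.00657, limma), or -1.55 without KO isoproterenol library 1 (adjusted p 0.00189). It was lower in KO isoproterenol than in WT isoproterenol by a log2 difference of -1.97 ± 0.67, or -1.02 without that library. Esrra, the estrogen-related receptor alpha, fell by log2 -1.54 ± 0.26 in KO and was lower than in WT isoproterenol by -1.86 ± 0.26. Myc rose in KO by 1.68 ± 0.33 and was higher than in WT isoproterenol by 1.61 ± 0.33. The responses differed by -1.95 for Esrra, -1.47 for Atf5, a factor of the mitochondrial stress response, and 1.35 for Myc. Ddit3 (CHOP), a stress factor, fell in WT (log2 -0.68 ± 0.22, adjusted p 0.0444, limma).

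Ratios within 6 pairs of related or partner genes were compared between groups with exact two-sided permutation tests over the 70 arrangements of 4 against 4 libraries, 24 tests in all. The smallest p this design allows is 0.0286, and 9 comparisons reached it. After Benjamini-Hochberg adjustment over the 24 these stood at 0.0762, so none passed 0.05. The log2 ratio of Grpel1 to Grpel2 was 1.45, 2.81, 3.01 and 3.33 in KO isoproterenol libraries and 3.91, 3.56, 3.72 and 3.82 in WT isoproterenol. It was 3.11, 3.06, 3.09 and 2.80 in KO saline and 2.57, 2.75, 2.47 and 2.52 in WT saline. WT isoproterenol lay above every other group, by 1.18 over WT saline, and KO isoproterenol lay below it, at a log2 difference of -1.10. The log2 ratio of Tomm40 to Tomm40l was 2.29, 2.82, 2.67 and 2.66 in KO isoproterenol, 2.64, 2.62, 2.34 and 2.45 in WT isoproterenol, 1.76, 1.70, 2.05 and 2.31 in KO saline and 1.93, 1.71, 1.50 and 1.60 in WT saline. It was higher by 0.82 with isoproterenol in WT, without overlap, and by 0.66 in KO, with overlap. WT isoproterenol also lay above WT saline without overlap for Timm17a over Timm17b (0.43) and Timm8a1 over Timm8b (0.35). KO saline lay above WT saline without overlap for Grpel1 over Grpel2 (0.44), Timm8a1 over Timm8b (0.38) and Hspd1 over Hspe1 (0.24), and KO isoproterenol below WT isoproterenol for Dnajc15 over Dnajc19 (-0.59).

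**Figure D5:**
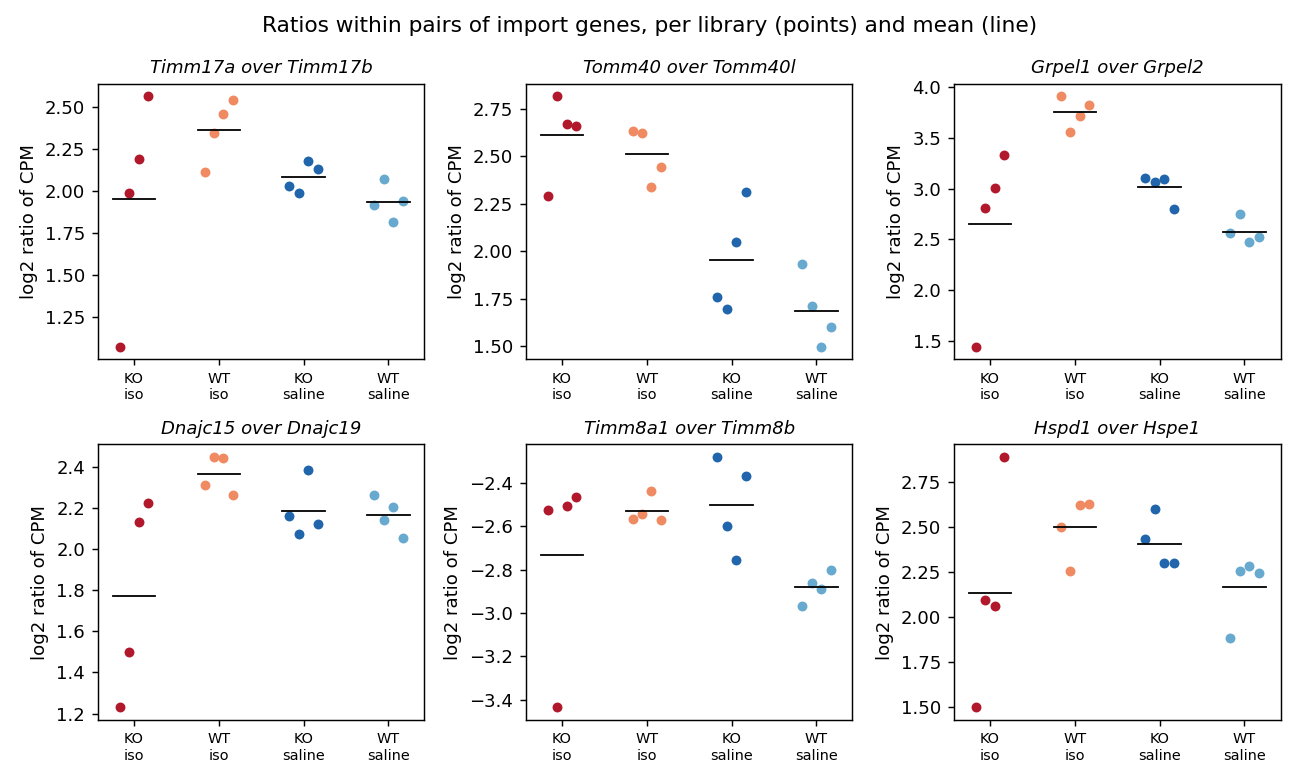
Each panel shows the log2 ratio of CPM of 2 import genes in the 16 libraries, as points, with the mean of each group as a line, from KO isoproterenol on the left to WT saline on the right. Grpel1 over Grpel2 is highest in WT isoproterenol, at 3.56 to 3.91, and the KO isoproterenol points are the most spread in 5 of the 6 panels.

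Reads shared between genes limit some of these values. Exons of 17 members overlap those of another gene, for 3 of them on the same strand, and Hspd1 and Hspe1 overlap each other on opposite strands. Pseudogenes named after 4 members (Hspd1, Hspe1, Hspa9 and Dnajc19) exist in the annotation. Neither the counter nor its strand setting is given, so the values of these genes are uncertain.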

How the data were processed

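Brown adipose tissue RNA was sequenced as stranded mRNA libraries with 75 bp single reads, per the labels' protocols. The deposited values are log2 CPM, 1 file per library, and the authors' scaling is contained in them. The submitters' processing notes name STAR, limma and mm39; their versions, the annotation and the counter are not given. From each deposited log2 value whole reads were recovered (100% within 0.001 of a whole number, prior count 0.5), which gave depths of 9004515 to 20986735 reads. The library sizes behind the CPM were 0.854 to 1.25 times those depths. One read was worth 0.0476 to 0.115 CPM, and this limits only Tomm6os here.

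Genotype and treatment characteristics gave the groups, and titles the replicate numbers; the column headers of 3 KO saline libraries carry another number. Symbols came from GENCODE M21 (15320 identifiers named, 30 not), of another build than mm39, used for names and overlaps. Differences of log2 means were tested with limma 3.58.1 (R 4.3.3; lmFit, eBayes with trend and robust settings; 16 libraries, 12 residual degrees of freedom), in 5 contrasts, with Benjamini-Hochberg adjustment over 15350 genes. The fit was tested on simulated data. A count model had been planned; the deposited unit is log2, so limma was used on it instead. CPM is 2 to the power of the deposited value.

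Every member is accounted for. Values per library are given for the 4 called members with the largest change in each contrast and for 10 others (Hspd1, Hspe1, Hspa9, Lonp1, Clpp, Timm17a, Timm17b, Tomm20, Tomm40 and Timm23), plus Tomm34, and from the lists of related genes and regulators the 3 called with the largest change are named. The members and lists were chosen with earlier results of these data known. Same-numbered WT libraries each correlated above 0.1, as did some different-numbered pairs, and the WT block is given in the text. Same-numbered KO libraries were not all above 0.1 (0.040, 0.149, 0.239 and 0.033). Alternatives were scaling by library totals, 1 CPM added, a filter at mean log2 CPM of 1, replicate blocks, only the groups compared, omission of each library and voom weights, the last chosen after seeing the data.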

Additional observations from a re-analysis of the deposited data

Results flagged for a closer look

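One library stood apart from its group for 2 members. Pam16 was at 15.6 CPM in WT saline library 4, below the other 3 libraries at 17.4 to 17.6 CPM. Dnajc19 was at 60.6 CPM in WT saline library 2, above the other 3 at 46.8 to 48.5 CPM. In each case the gap to the nearest library, as a share of the group's range, was above Dixon's 95% critical value for 4 samples. Chance gives about 1 such case in 20 groups, or 7.4 in the 148 groups of 4 examined.

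The isoproterenol response differed between KO and WT, by the test of the difference itself in limma, for 29 members. Of all genes, 13.8% had a negative difference past the threshold and 10.9% a positive one. The KO response minus the WT response was positive for Tomm34 at 0.87 (log2). It was negative for the other 28, with -1.77 for Timm50, -1.76 for Timm8a1, -1.75 for Timm9, -1.65 for Dnajc15, -1.61 for Clpp, -1.56 for Pmpcb, -1.53 for Timm44, -1.52 for Grpel1, -1.47 for Timm13. Next came -1.40 for Hspd1, -1.36 for Tomm5, -1.35 for Timm10, -1.31 for Timm22, -1.27 for Timm21, -1.25 for Tomm40, -1.18 for Timm8b, -1.11 for Timm17a, -1.09 for Tomm40l, -1.07 for Timmdc1. The smallest were -1.04 for Dnajc19, -1.004 for Timm29, -0.99 for Pmpca, -0.95 for Pam16, -0.91 for Tomm7, -0.81 for Tomm22, -0.80 for Hspe1, -0.73 for Timm10b and -0.55 for Timm17b. Without any 1 library in turn, 23 of the 29 remained past the threshold in every case, and the 6 that did not were Grpel1, Hspd1, Pmpca, Timm10b, Timm17a and Timm8b. Without KO isoproterenol library 1 the difference was -0.9998 for Grpel1 and -0.76 for Timm8b. The negative direction was shared by all 47 complex I genes, and 46 of them were called, where 13.8% of all genes were called negative.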

How the results depend on the processing

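With 1 CPM added or low genes filtered out, and with voom weights, all counts of members stayed within 1.5 times. With the WT replicate block the WT count was 3 in place of 5, and all genes called between KO and WT saline 5 in place of 15. The block on all numbers included the KO libraries, whose same-numbered pairs did not all correlate above 0.1. It gave 6 members in WT and 27 in KO, and 12 of 24 ratio comparisons at the smallest p. With only the 2 groups compared the member counts were 23 in WT, 15 in KO, 22 under isoproterenol and 1 between saline groups. The counts of all genes were then 4923 in WT, 5178 in KO, 4639 under isoproterenol and 50 between saline groups. Without 1 library in turn members called ran from 3 to 4 in WT, 20 to 33 in KO, 0 to 0 between saline groups, 28 to 34 under isoproterenol and 23 to 34 for the difference of responses. All genes called ran from 1623 to 2035, 6650 to 8313, 4 to 11, 5781 to 7709 and 2618 to 5666 in the same order, and ratio comparisons from 9 to 11. Scaling by library totals shifted the median of all genes by log2 0.18 in KO, -0.13 in WT, 0.27 between KO and WT isoproterenol and 0.34 in the difference of responses. Calls over all genes were then 4493 higher and 2939 lower in KO, 770 and 1748 in WT, 5030 and 2527 under isoproterenol, and 2895 and 1477 for the difference. Members were 1 higher and 19 lower in KO, 4 and 1 in WT, 1 and 28 under isoproterenol, and 1 and 20 for the difference. Of 94 log2 changes followed through every setting (each call of a member and 6 others), only those of Tomm20, not called, changed sign: its KO change ran from -4.4e-04 (without KO isoproterenol library 4) to 0.28 without 1 library, and KO against WT isoproterenol was 0.19 scaled by totals and -0.18 to 0.099 without 1 library, the highest without KO isoproterenol library 1. Outside these 94, the KO change of Tomm70a also turned without KO isoproterenol library 1. In KO 34 members were below 0, and 32 without that library. The causes were not tested. Counting depth limits Tomm6os. The planned count tests were not run, because the deposited unit is log2 CPM.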
